A study of Mus musculus with 6 samples.

Results

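Nearly all proteins of the mitochondrion are made on cytosolic ribosomes and imported. The TOM complex of the outer membrane recognizes and admits the precursors, the SAM complex builds barrel-shaped proteins into that membrane, and small TIM chaperones and the oxidoreductase CHCHD4 guide and fold proteins in the intermembrane space. The TIM22 and TIM23 translocases of the inner membrane insert carriers or pass precursors with a presequence inwards, the PAM motor pulls these into the matrix, and the matrix processing peptidase removes the presequence. The genes of this machinery were followed in mouse hearts that lacked MRPS5, a protein of the mitochondrial ribosome, the organelle's own ribosome, which makes the few proteins that are not imported. Members were the protein-coding genes whose symbol starts with Timm or Tomm followed by a digit, together with Samm50, Chchd4, Pam16, Dnajc15, Dnajc19, Grpel1, Grpel2, Pmpca and Pmpcb. The rule itself used no measured value, but it was set with earlier results of these data known. It gave 34 of the 54532 genes in the table.

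Gene expression was measured by poly-A RNA sequencing of 6 samples of heart tissue, described in the methods of the study as ventricular. The labels number replicates without naming animals, and each sample is taken here as a separate mouse. The 3 Ctrl mice, littermates by the methods of the study, were Mrps5 fl/fl and the 3 cKO mice were Mrps5 fl/fl with MCM, the tamoxifen-inducible MerCreMer recombinase driven in cardiomyocytes by the αMHC promoter. Both groups received tamoxifen at 45 mg/kg/day for 5 days at 8 weeks of age and were sampled 12 weeks later. Ctrl hearts thus carried the floxed alleles and had the drug but lacked the recombinase, so loss of Mrps5 and presence of MerCreMer cannot be told apart, and cells other than cardiomyocytes kept Mrps5. Levels are FPKM (fragments per kilobase of gene, scaled to library size), errors are SD over 3 hearts unless called SE, and fold changes are differences of log2(FPKM + 1), cKO minus Ctrl, which understate the change of low genes. For Mrps5 itself, on chromosome 2 from 127587222 to 127606829 (GRCm38), Ctrl replicates 1, 2 and 3 had 5.20, 6.45 and 6.33 FPKM and cKO replicates 1, 2 and 3 had 1.12, 1.23 and 1.31 FPKM. Expression in cKO hearts was thus 0.204 times that in Ctrl hearts (log2 fold change -1.65, SE 0.0944, limma adjusted p = 0.000202).

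Libraries held 15989322 to 24875499 reads assigned to genes, worked back from FPKM, and the groups overlapped in depth. Among markers of cell types in the heart, 5 of 10 cardiomyocyte markers fell and none rose, with a summed level of 15610 to 19770 FPKM in Ctrl and 9574 to 16690 FPKM in cKO. Of 6 endothelial markers 4 fell and none rose, and their sum did not overlap between Ctrl (120.4 to 139.9 FPKM) and cKO (78.2 to 93.2 FPKM). Of 8 fibroblast markers 3 rose and 1 fell, of 6 macrophage markers tested 1 fell, and none of 5 atrial or 5 red blood cell markers passed the test. Over all 12944 genes tested, 16.3% rose and 17.0% fell by the same test. The atrial sum ranged from 130.9 to 2084 FPKM over the Ctrl hearts and from 578.4 to 1676 FPKM over the cKO hearts. No marker was at 0. The study states that only males were used, but cKO replicate 2 had 10.7 FPKM of Xist and 0 FPKM of the Y-linked Ddx3y, Kdm5d, Uty and Eif2s3y, unlike the other 5 hearts. Only a Myl7 covariate for atrial tissue and the omission of single hearts, both given below, bear on these differences. Their part in the results was otherwise not tested. In heart tissue fewer cells of a type and less RNA per cell cannot be told apart.

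Import genes moved in both directions, with more of them higher than lower in cKO. Of the 34 members, 31 had a mean of at least 0.5 FPKM and were tested. Of these, 11 rose (35.5%), 3 fell (9.68%) and 17 did not pass the adjusted p threshold of 0.05. Over all 12944 genes tested, 33.3% passed the threshold, 16.3% as higher and 17.0% as lower. Tested members had a median log2 fold change of 0.11, and all genes tested had one of -0.02. In size the members did not stand out, since their median absolute log2 fold change was 0.21 against 0.22 over all genes tested, and no member exceeded 1. Groups did not overlap for 20 of the 31 members (64.5%), against 51.2% of all genes tested. Leaving out Ctrl replicate 1, 2 or 3 in turn left 8 of the 14 members past the threshold each time, and leaving out cKO replicate 1, 2 or 3 left 10, 12 and 13. Chchd4, Dnajc19, Grpel2, Timm10, Timm8a1, Tomm5 and Tomm70a kept the call under every one of 15 alternatives.

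**Figure D1:**
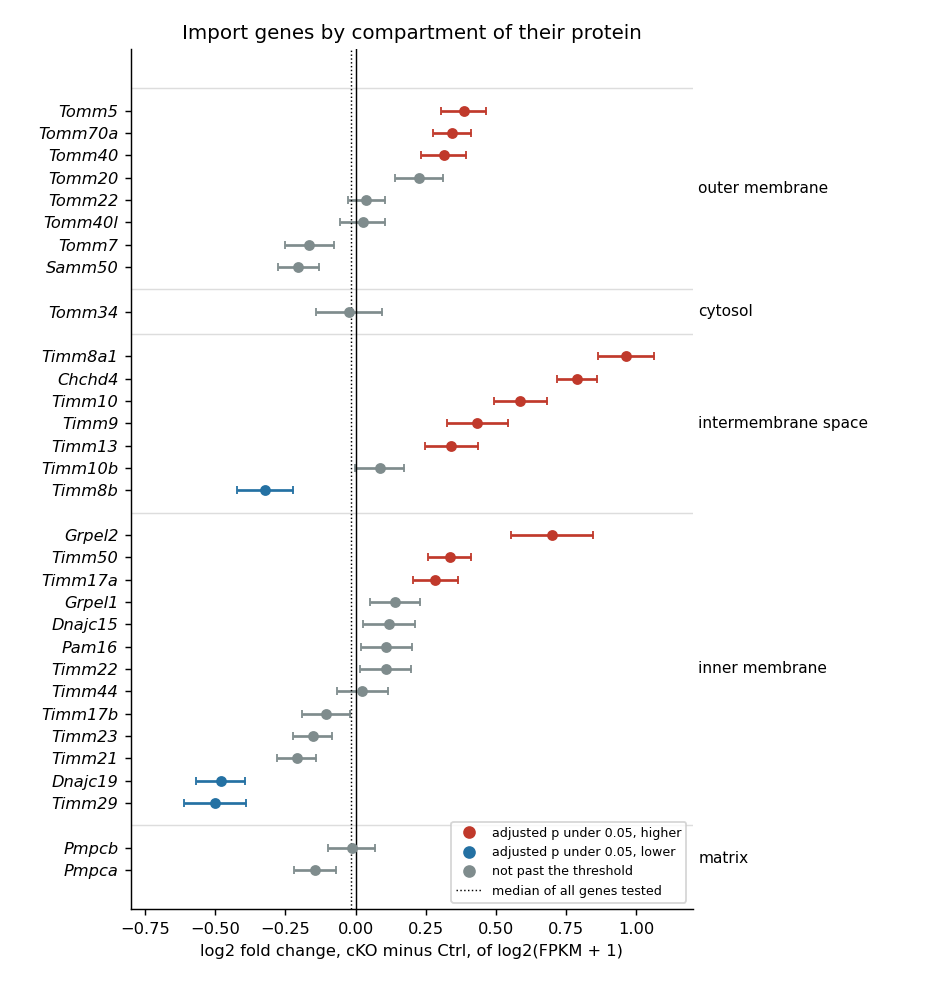
Log2 fold change of log2(FPKM + 1), cKO minus Ctrl, for the 31 tested members (points) with SE (bars), grouped by the compartment of their protein; the dotted line is the median of all genes tested. Intermembrane space genes reach furthest to the right, with Timm8a1 at 0.96 and Chchd4 at 0.79, and the members furthest to the left are Timm29 at -0.50 and Dnajc19 at -0.48, both of the inner membrane.

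By compartment, calls were most frequent among genes of the intermembrane space, where 5 of 7 tested members rose, 1 fell and the median log2 fold change was 0.43. Among outer membrane genes 3 of 8 tested members rose and none fell at adjusted p, and the median was 0.13. Unadjusted limma p was under 0.05 for 5 of these 8, including Samm50 as lower. The same held for 6 of 13 inner membrane and 6 of 7 intermembrane space members, and for 5815 of all 12944 genes tested. Among inner membrane genes 3 of 13 rose (23.1%) and 2 fell (15.4%), with a median of 0.11. The share called in either direction was 37.5% in the outer and 38.5% in the inner membrane. Both were near the 33.3% of all genes tested (16.3% higher, 17.0% lower). By direction they were unlike, since the outer membrane calls were all higher (37.5%) and the inner membrane calls went both ways (23.1% and 15.4%). Both medians moved when single hearts were left out. The inner median lay between 0.0404 (without cKO replicate 1) and 0.124 (without cKO replicate 2). The outer median lay between 0.106 (without cKO replicate 1) and 0.169 (without Ctrl replicate 2). The range was wider in the inner membrane (-0.50 to 0.70) than in the outer (-0.21 to 0.38). Summed over the 8 outer membrane genes, the level was 290.6, 316.1 and 291.4 FPKM in Ctrl and 339.4, 321.2 and 335.7 FPKM in cKO hearts, without overlap. Summed over the 13 inner membrane genes it was 293.5, 321.5 and 300.1 FPKM in Ctrl and 312.9, 297.4 and 299.8 FPKM in cKO hearts, with every cKO heart inside the Ctrl range. The separation of the outer sums was that of Tomm5. Without it, an omission chosen after the values were seen, the other 7 genes summed to 179.8, 195.8 and 184.9 FPKM in Ctrl and 188.9, 181.6 and 184.4 FPKM in cKO hearts, which overlapped. A difference between compartments was not tested.

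In the outer membrane, Tomm5, a small subunit of the TOM complex, was the most abundant TOM transcript. Its level was 110.8, 120.3 and 106.5 FPKM in Ctrl and 150.5, 139.6 and 151.3 FPKM in cKO replicates 1, 2 and 3. The lowest cKO heart lay above the highest Ctrl heart, at an adjusted p of 0.0117 (log2 fold change 0.38, SE 0.0796). Tomm70a, the receptor for carrier precursors delivered by cytosolic chaperones, was at 9.93, 9.95 and 9.40 FPKM in Ctrl and 13.0, 12.8 and 12.1 FPKM in cKO hearts. It rose 1.30-fold (log2 fold change 0.34, SE 0.0673, adjusted p = 0.00960), and the SD was under 0.5 FPKM in each group. Tomm40, the pore of the complex, was at 13.1, 13.1 and 12.2 FPKM in Ctrl and 16.0, 17.5 and 15.0 FPKM in cKO hearts. All cKO hearts were higher and the log2 fold change was 0.31 (SE 0.0805, adjusted p = 0.0246), but the call ended without Ctrl replicate 1, 2 or 3 or without cKO replicate 1, at adjusted p between 0.0535 and 0.0839.

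The other outer membrane genes did not pass the threshold. Tomm20, the presequence receptor, was at 19.3, 20.4 and 18.3 FPKM in Ctrl and 25.0, 21.5 and 21.9 FPKM in cKO hearts, without overlap (log2 fold change 0.23, SE 0.0844, adjusted p = 0.0803). Samm50, the barrel of the SAM complex, had means of 46.4 and 40.1 FPKM (log2 fold change -0.21, adjusted p = 0.0701), also without overlap. Tomm7, a small regulatory subunit, had means of 58.2 and 51.8 FPKM and lay below Ctrl in every cKO heart (-0.17, adjusted p = 0.189). Tomm22, the central receptor, was at 35.3 ± 1.45 FPKM in Ctrl and 36.2 ± 0.230 FPKM in cKO. Tomm40l, a paralog of Tomm40, was at 5.01, 5.60 and 4.86 FPKM in Ctrl and 5.03, 5.58 and 5.17 FPKM in cKO hearts, where the groups overlapped. In the annotation 64.3% of its exonic bases are shared with the gene Nr1i3 on the opposite strand. Nr1i3 was near 0 FPKM here, but the strand setting of the counting is not given, so the value of Tomm40l is uncertain. Tomm34, a cytosolic cofactor, had means of 5.59 and 5.46 FPKM and overlapped between groups (adjusted p = 0.888). Tomm20l and Tomm6 stayed under 0.15 FPKM in every heart and were not tested. For Tomm6, 84.2% of the exonic bases are shared with other annotated genes, 76.0% on the same strand, so its value is uncertain.

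In the intermembrane space, CHCHD4 traps cysteine-rich precursors by forming disulfide bonds in them, and the small TIM proteins are among its substrates. Chchd4 lies on chromosome 6 from 91462172 to 91473546. Its level was 6.36, 6.14 and 5.91 FPKM in Ctrl and 11.7, 11.6 and 10.6 FPKM in cKO hearts. Every cKO heart lay far above every Ctrl heart, and the log2 fold change was 0.79 (SE 0.0713, adjusted p = 0.00101), the smallest adjusted p of the members. Timm8a1 encodes a chaperone that works with TIMM13 and whose human counterpart is mutated in deafness-dystonia syndrome. It was at 8.56, 10.4 and 8.09 FPKM in Ctrl and 19.2, 18.1 and 18.0 FPKM in cKO hearts. Its mean went from 9.01 ± 1.21 to 18.4 ± 0.637 FPKM, 2.05-fold (log2 fold change 0.96, SE 0.0985, adjusted p = 0.00145). Timm8a1 is X-linked, and cKO replicate 2, which lacked Y-linked transcripts, lay between the other cKO hearts.

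TIMM9 and TIMM10 form the hexamer that carries hydrophobic precursors through the intermembrane space, and both genes rose. Timm10 was at 61.9, 63.0 and 56.5 FPKM in Ctrl and 88.3, 101.8 and 84.1 FPKM in cKO hearts. The groups were well separated (log2 fold change 0.59, SE 0.0949, adjusted p = 0.00515). Timm9 was far lower per length, at 3.08, 2.87 and 2.97 FPKM in Ctrl and 3.92, 5.30 and 3.98 FPKM in cKO hearts. All cKO hearts were above Ctrl and replicate 2 was the highest of them (log2 fold change 0.43, SE 0.109, adjusted p = 0.0233). Without cKO replicate 2 the value was 0.32 and the call stayed, whereas without Ctrl replicate 1, 2 or 3 the call ended at adjusted p between 0.0572 and 0.0749. Timm13, the partner of TIMM8A, was at 45.4, 47.2 and 40.6 FPKM in Ctrl and 62.3, 53.7 and 53.6 FPKM in cKO hearts. It was higher in every cKO heart (log2 fold change 0.34, SE 0.0948, adjusted p = 0.0324), and the call held among single-heart omissions only without cKO replicate 2, with adjusted p between 0.0527 and 0.103 in the other omissions.

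Timm8b, a paralog of Timm8a1, differed from these genes in direction. It was the most abundant member in Ctrl hearts, and second to Tomm5 in the cKO means, at 152.2, 174.8 and 152.7 FPKM in Ctrl and 128.3, 115.7 and 139.0 FPKM in cKO hearts. The groups did not overlap and the log2 fold change was -0.32 (SE 0.0992, adjusted p = 0.0442). This call was the least stable of the members, since it was lost under 10 of 15 alternatives, and without Ctrl replicate 1, 2 or 3 or cKO replicate 1 or 2 the adjusted p was between 0.0769 and 0.127. Timm8b shares 15.6% of its exonic bases with Nkapd1 on the opposite strand, a gene at 1.85 FPKM. Timm10b, a paralog found in the TIM22 complex, was at 0.922, 0.926 and 0.704 FPKM in Ctrl and 1.02, 0.885 and 0.977 FPKM in cKO hearts, with overlap (adjusted p = 0.484). Timm8a2 reached 0.0453 FPKM in 1 Ctrl heart, was at 0 FPKM in the other 5 and was not tested.

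**Figure D2:**
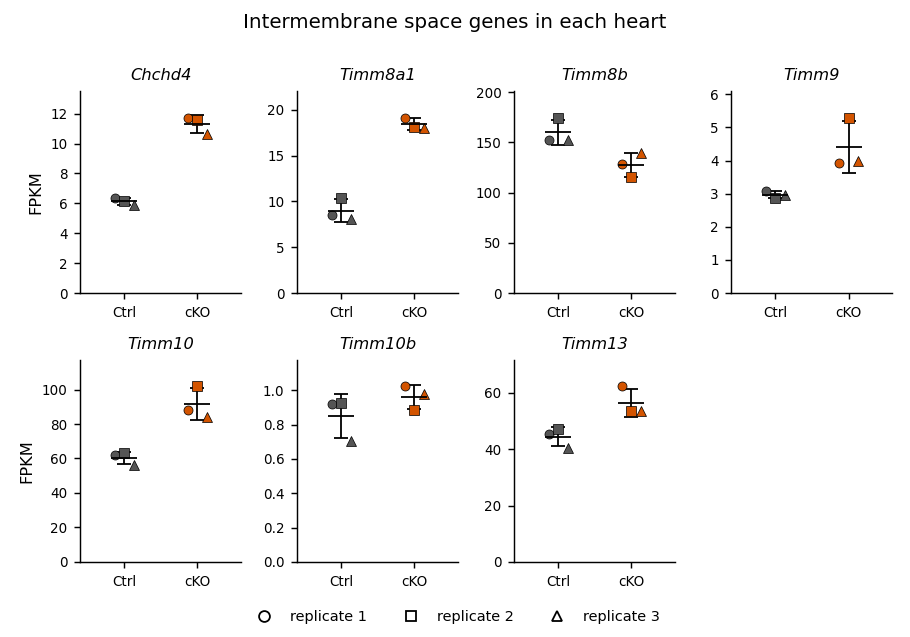
FPKM of the 7 tested intermembrane space genes in each heart (points, symbol by replicate), with the mean and SD of each group (bars). The Ctrl and cKO points are separate for Chchd4, Timm8a1, Timm9, Timm10 and Timm13 (cKO higher) and for Timm8b (cKO lower), and mixed for Timm10b.

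Promoter sequences were read beside these values because the small TIM genes moved in opposite directions. RefSeq windows from 250 bases before to 50 bases after the start site (GRCm38.p6) were matched for 30 of the 34 members, Tomm7, Tomm40l, Grpel2 and Timm21 being the exceptions, and 5 motifs were searched on both strands. The E-box CACGTG was in the windows of 5 of the 30 members (16.7%), against 12.0% of the genes tested that had a window and 8.09% of all genes with a window. Of the 10 higher members with a window, 3 held it, and these were Timm8a1, Timm9 and Timm10. Chchd4 and Timm13, also higher and of the intermembrane space, had windows without it. The other members with it were Tomm20 and Tomm20l. These 3 intermembrane space promoters and that of Timm8b are shown. They were chosen after the search because they hold the marked letters, so they do not compare higher with lower genes. Capitals mark CACGTG in the 3 higher genes and AAGGTCA and CCGGAAG in Timm8b. The Timm8a1 stretch is chrX:134541641-134541920 on the minus strand, with CACGTG at positions -236 and 25 from the start site. The Timm9 stretch is chr12:71136646-71136925 on the minus strand, with CACGTG at positions -58 and -1. The Timm10 stretch is chr2:84827034-84827063 on the plus strand, where CACGTG starts at position 29. The Timm8b stretch is chr9:50603651-50603930 on the plus strand, with AAGGTCA at position -94 and CCGGAAG at position -12.
Timm8a1: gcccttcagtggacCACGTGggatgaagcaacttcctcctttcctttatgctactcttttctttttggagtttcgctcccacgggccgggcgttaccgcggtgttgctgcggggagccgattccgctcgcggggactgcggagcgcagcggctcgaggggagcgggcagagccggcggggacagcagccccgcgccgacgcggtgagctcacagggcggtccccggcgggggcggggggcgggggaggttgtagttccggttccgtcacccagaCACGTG
Timm9: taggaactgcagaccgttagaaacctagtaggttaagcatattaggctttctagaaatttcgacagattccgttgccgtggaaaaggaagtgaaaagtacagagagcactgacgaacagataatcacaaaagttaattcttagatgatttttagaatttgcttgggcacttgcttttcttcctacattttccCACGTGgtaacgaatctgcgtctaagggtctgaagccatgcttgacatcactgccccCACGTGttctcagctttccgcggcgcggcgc
Timm10: cttccggaagtgaccCACGTGcttcttatt
Timm8b: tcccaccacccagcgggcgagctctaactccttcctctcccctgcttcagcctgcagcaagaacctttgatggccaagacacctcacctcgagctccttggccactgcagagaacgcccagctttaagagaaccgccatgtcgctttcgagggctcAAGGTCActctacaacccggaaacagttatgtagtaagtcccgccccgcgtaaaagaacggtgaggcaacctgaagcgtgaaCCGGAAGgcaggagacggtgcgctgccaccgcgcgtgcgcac

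CCGGAAG, the core letters bound by ETS factors, was more frequent in the members than in other genes, at 12 of 30 (40.0%) against 20.1% of genes tested and 9.93% of all genes. It was in 2 of 10 higher members (Tomm70a and Timm10), in 2 of 3 lower members (Timm8b and Timm29) and in 7 of 14 tested members that did not pass. In the Timm10 stretch it overlaps its own reverse complement, in lower case before the E-box. AAGGTCA, a letter string bound by estrogen-related receptors, was in Timm8b, Timm23 and Timm44 (10.0% of members, 3.95% of genes tested, 5.38% of all genes). GCATGCGC, bound by NRF1, was in Timm13 and Grpel1 (6.67%, against 5.99% and 3.05%). TGATGNAA, the composite element of ATF4 and C/EBP, was in 0 of 30 members, 2.75% of genes tested and 4.51% of all genes. A match describes the letters of these windows and is not a site of binding.

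In the inner membrane, the TIM23 translocase had members on both sides of 0. Timm50, the receptor that takes precursors over from TOM, was at 19.0, 20.7 and 19.5 FPKM in Ctrl and 26.9, 24.2 and 24.3 FPKM in cKO hearts. It was higher in every cKO heart (log2 fold change 0.33, SE 0.0762, adjusted p = 0.0163), and the call ended without Ctrl replicate 1 or 3 (adjusted p 0.0573 to 0.0598). Timm17a, a subunit that lines the translocation path, was at 18.2, 20.2 and 19.7 FPKM in Ctrl and 23.3, 25.6 and 22.4 FPKM in cKO hearts. Here too the groups were separate (log2 fold change 0.28, SE 0.0802, adjusted p = 0.0346), and the call held among single-heart omissions only without cKO replicate 3, with adjusted p between 0.0654 and 0.110 otherwise. Its X-linked paralog Timm17b was at 13.5, 12.7 and 11.2 FPKM in Ctrl and 11.9, 11.2 and 11.2 FPKM in cKO hearts, with overlap (adjusted p = 0.371). Timm23, the core channel subunit, had means of 85.7 and 76.9 FPKM (log2 fold change -0.15, adjusted p = 0.125). Timm21, which links the translocase to respiratory chain complexes, had means of 24.7 and 21.2 FPKM (-0.21, adjusted p = 0.0549). For both, every cKO heart lay below every Ctrl heart, although neither passed the threshold.

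The TIM22 translocase inserts carriers with several membrane spans. Timm29, a subunit of it known from animal cells, was at 22.0, 23.5 and 22.7 FPKM in Ctrl and 17.3, 13.2 and 17.1 FPKM in cKO hearts. It fell to 0.698 times Ctrl (log2 fold change -0.50, SE 0.111, adjusted p = 0.0145). cKO replicate 2 was the lowest heart, and without it the value was -0.38 with the call kept, while without Ctrl replicate 2 the adjusted p was 0.0523. Timm22, the channel, had means of 8.03 and 8.73 FPKM and missed the threshold (adjusted p = 0.406).

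The PAM motor consists of an HSP70, nucleotide exchange factors of the GrpE family and J proteins, and its members went different ways. Grpel2, described as the stress-responsive exchange factor, was at 5.79, 6.72 and 6.03 FPKM in Ctrl and 9.29, 13.6 and 9.50 FPKM in cKO hearts. All cKO hearts were above Ctrl, replicate 2 by the widest margin, and the log2 fold change was 0.70 (SE 0.145, adjusted p = 0.0116). Without cKO replicate 2 it was 0.54 and still past the threshold. That heart, which lacked Y-linked transcripts, was also the cKO heart furthest from Ctrl for Timm9, Timm10, Timm17a, Tomm40, Timm8b and Timm29. It was not so for the other members past the threshold, and a part of sex was not tested. Grpel1, the paralog of Grpel2, was at 33.9, 40.6 and 36.4 FPKM in Ctrl and 42.6, 38.4 and 41.3 FPKM in cKO hearts, where the groups overlapped (adjusted p = 0.267). Dnajc19, the J protein that stimulates the motor and whose human counterpart is mutated in a dilated cardiomyopathy with ataxia, was at 12.0, 13.4 and 11.1 FPKM in Ctrl and 7.95, 8.70 and 8.66 FPKM in cKO hearts. It fell to 0.692 times Ctrl, with no overlap (log2 fold change -0.48, SE 0.0875, adjusted p = 0.00759).

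The Dnajc19 locus (chromosome 3, 34056020 to 34081321) lies across Fxr1 on the opposite strand, with 4.4% of its exonic bases shared, and Fxr1 was at 24.7 to 30.4 FPKM. A pseudogene copy, Dnajc19-ps, was listed at 7.02, 7.81 and 6.24 FPKM in Ctrl and 4.38, 3.66 and 5.44 FPKM in cKO hearts. The copy was thus also lower in every cKO heart, and reads may be split between it and Dnajc19. Dnajc15, the other J protein, was at 13.1, 15.4 and 13.7 FPKM in Ctrl and 16.7, 14.1 and 15.3 FPKM in cKO hearts, with overlap (adjusted p = 0.362). Pam16, which holds back the J protein, had means of 17.5 and 19.0 FPKM, and Timm44, which tethers the motor to the channel, had means of 25.6 and 26.0 FPKM, and neither passed (adjusted p 0.392 and 0.861). In the matrix, Pmpca, a subunit of the processing peptidase, was at 35.0, 36.8 and 35.2 FPKM in Ctrl and 33.5, 29.9 and 33.3 FPKM in cKO hearts, without overlap (adjusted p = 0.177). Pmpca shares 20.4% of its exonic bases with Inpp5e on the opposite strand. Inpp5e was at 5.61, 4.99 and 5.47 FPKM in Ctrl and 3.86, 4.41 and 4.11 FPKM in cKO hearts, and its part in the Pmpca values was not tested. Pmpcb, the catalytic subunit, was at 30.7, 31.9 and 30.9 FPKM in Ctrl and 33.8, 28.1 and 30.9 FPKM in cKO hearts, with overlap (adjusted p = 0.913).

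**Figure D3:**
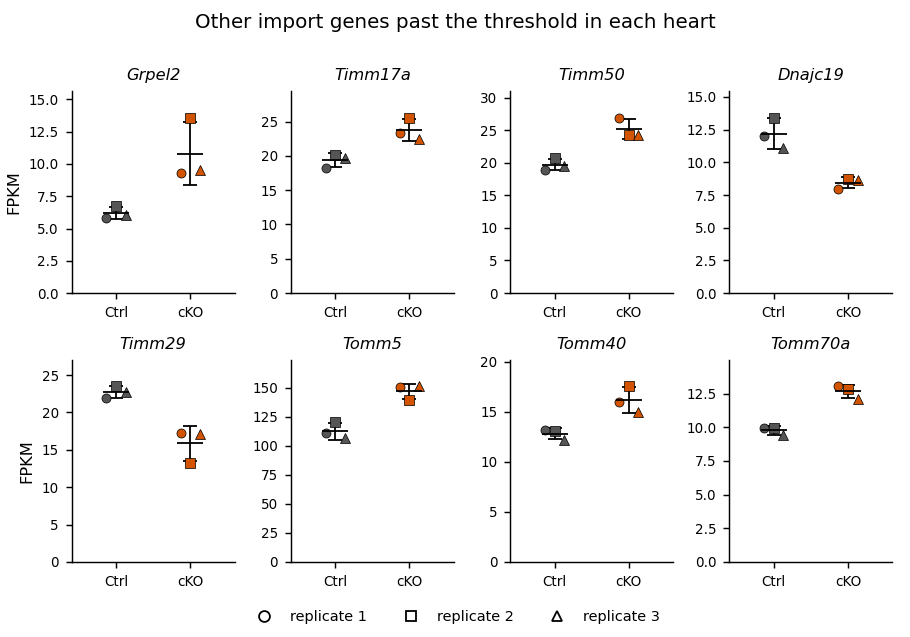
FPKM in each heart (points, symbol by replicate) with the mean and SD of each group (bars) for the 8 members past the threshold outside the intermembrane space. Grpel2, Timm17a, Timm50, Tomm5, Tomm40 and Tomm70a are higher in all cKO hearts, and Dnajc19 and Timm29 are lower in all of them.

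Plain FPKM ratios of paralogs and partners within a heart do not depend on the scaling of the library, and 8 pairs were compared. The test used differences of log2(FPKM + 1), which depend on it a little. For Timm10 to Timm10b the change was 0.501, and 0.515 under median-of-ratios scaling. The ratio of Timm8a1 to Timm8b moved the most, from 0.0562 ± 0.00324 in Ctrl to 0.145 ± 0.0140 in cKO, a change of 1.29 (SE 0.0895) in the difference of log2(FPKM + 1), so that Timm8b remained the more abundant of these paralogs per length. Dnajc19 to Dnajc15 went from 0.867 ± 0.0558 to 0.554 ± 0.0710, and Grpel1 to Grpel2 from 5.98 ± 0.108 to 3.92 ± 0.958. For the latter, cKO replicate 2 had the lowest ratio, 2.82. Timm17a to Timm17b went from 1.57 ± 0.209 to 2.08 ± 0.176, and Tomm40 to Tomm40l from 2.49 ± 0.141 to 3.07 ± 0.147. The level of Tomm40l, and so the ratio of Tomm40 to it, is uncertain because of the overlap with Nr1i3. Timm10 to Timm10b went from 71.8 ± 7.38 to 95.9 ± 16.7. Among partners, Pmpca to Pmpcb went from 1.14 ± 0.00926 to 1.04 ± 0.0472, while Timm9 to Timm10 overlapped between groups (0.0493 ± 0.00349 and 0.0479 ± 0.00387). In the exact two-sided permutation test, p was 0.1 for each of the 7 separated pairs, the smallest that 3 hearts against 3 can give, and 0.2 for Timm9 to Timm10 (adjusted over the 8 pairs, 0.114 and 0.2), so none could pass 0.05. Tomm20l was too low to be paired with Tomm20. A share of separated pairs among other genes was not computed, and of single genes tested 51.2% were separate. Each separated pair except Pmpca to Pmpcb holds a member past the threshold, so the separation partly restates those calls.

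**Figure D4:**
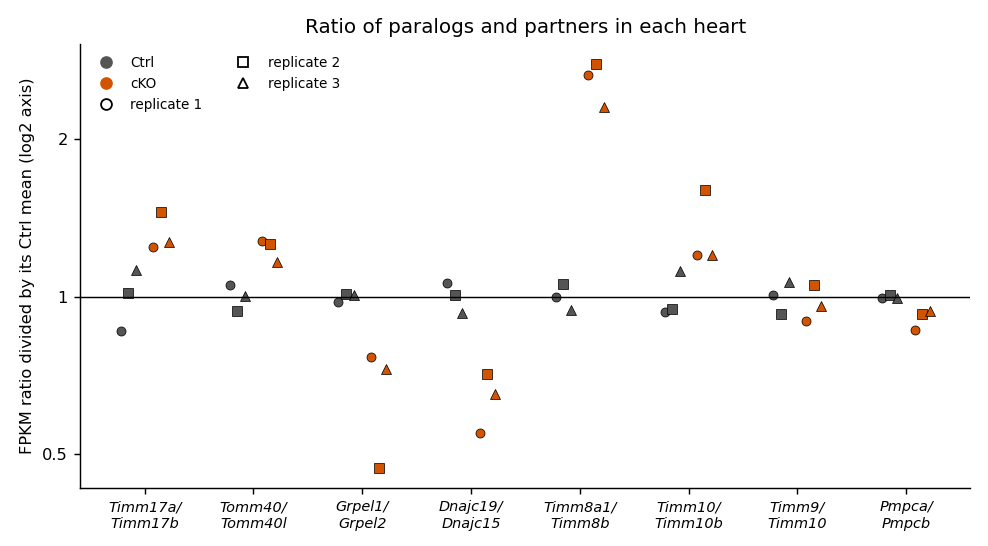
FPKM ratio of 2 genes in each heart, divided by the mean ratio of the Ctrl hearts (log2 axis), for 8 pairs of paralogs or partners; points are hearts, with symbols by replicate. The 3 cKO hearts lie apart from the 3 Ctrl hearts for every pair but Timm9/Timm10, and Timm8a1/Timm8b lies furthest above 1.

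Import also needs genes outside the selection, and 24 of them, the motor HSP70, the CHCHD4 cycle, metaxins, insertases, presequence proteases, cristae organizers and cytosolic chaperones, were all tested. Of these, 7 rose (29.2%), 4 fell (16.7%) and 13 did not pass, with a median log2 fold change of 0.16. Over all genes tested the shares were 16.3% higher and 17.0% lower, so the share that fell was near that of the background. The list was chosen with earlier results of these data known, which limits what its shares can show. Hspa9, the HSP70 of the motor that GRPEL1 and GRPEL2 serve, was at 222.8, 238.7 and 228.6 FPKM in Ctrl and 448.9, 413.6 and 445.1 FPKM in cKO hearts. It rose 1.90-fold without overlap (log2 fold change 0.92, SE 0.0755, adjusted p = 0.000802). Chchd6, a subunit of the cristae-organizing MICOS complex, was at 3.59, 3.57 and 2.89 FPKM in Ctrl and 8.81, 6.43 and 7.91 FPKM in cKO hearts (2.30-fold, adjusted p = 0.00235). Dnaja1, a cytosolic J protein that acts on precursors, was at 9.54, 8.91 and 8.06 FPKM in Ctrl and 18.4, 13.5 and 18.3 FPKM in cKO hearts (log2 fold change 0.84, adjusted p = 0.00434). All 3 were separate between groups. The 4 genes that fell, named after their values were seen, were Immp1l of the inner membrane peptidase, Romo1, the presequence protease gene Mipep and the MICOS gene Immt, with log2 fold changes of -0.56, -0.45, -0.42 and -0.26.

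**Figure D5:**
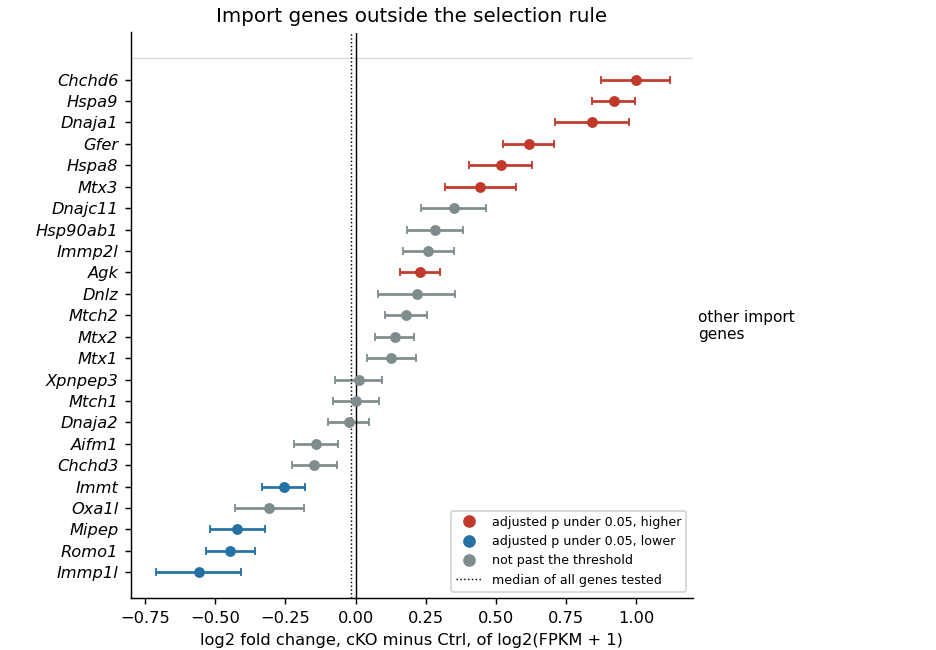
Log2 fold change of log2(FPKM + 1), cKO minus Ctrl (points), with SE (bars), for 24 import genes outside the selection rule; the dotted line is the median of all genes tested. Chchd6, Hspa9 and Dnaja1 lie furthest to the right and Immp1l furthest to the left.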

How the data were processed

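Heart RNA of 3 Ctrl and 3 cKO samples was analysed, with groups and replicate numbers from the sample titles. The authors aligned reads with HISAT2 2.0.5, counted them with featureCounts 1.5.0-p3 and used DESeq2 for their own test. These versions and DESeq2 1.16.1 are in the submitters' processing notes, and for DESeq2 the methods name a different version. The authors deposited FPKM values and, as an other gene-level value, the gene length. The strand setting is not given in the sources used here, so the larger overlaps with other genes are stated. Further ones, on the opposite strand, were Pam16 with Glis2 (18.7% of exonic bases) and Grpel1 with Tada2b (11.6%). Timm10b shared 22.1% with other genes, 10.5% on the same strand. Smaller overlaps are not all listed. The notes name mm9, but the table's coordinates are GRCm38: of 54495 gene identifiers shared with GENCODE M21, 53585 had the same start and end. Table lengths of Grpel2 and Timm21 differ from that annotation. For age, the methods and the labels differ, and the labels were followed.

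FPKM times gene length gave whole reads (within 0.1 read) for 100% of values, so depth is the recovered total. Genes averaging 0.5 FPKM or more were tested on log2(FPKM + 1) with limma 3.58.1 (R 4.3.3, eBayes with trend, two-sided, no covariates), with Benjamini-Hochberg adjustment over 12944 genes, and the fit was tested on simulated data. Pair differences of log2(FPKM + 1) were compared by exact permutation (SciPy 1.17.1). Nothing in the labels pairs the hearts: deviations of same-numbered hearts correlated at -0.06, 0.17 and -0.01.

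Every member could be named. Values per heart are given for members past the threshold, for both genes of each pair and for Mrps5, and of the other import genes for the 3 largest changes and Hspa9. The members and lists were chosen with earlier results of these data known. Alternatives were the pseudocount, the filter, scaling, voom on recovered reads, eBayes without trend, a replicate block, a Myl7 covariate for atrial tissue and leaving out each heart. The labels number replicates without naming animals, so p-values measure the spread between these libraries.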

Additional observations from a re-analysis of the deposited data

How the results depend on the processing

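Of the 14 members past the threshold, 7 kept the call under all 15 alternatives, 7 lost it under at least 1 (Timm8b 10, Timm13 7, Timm17a 7, Tomm40 5, Timm9 4, Timm50 2, Timm29 1) and none turned direction. With 1 heart left out, 6 to 10 members were higher and 1 to 3 lower, against 1396 to 1977 and 1423 to 2011 of all genes. The lowest counts came from omitting a Ctrl heart: 6, 7 and 6 members higher without Ctrl replicate 1, 2 and 3, and 1 lower without Ctrl replicate 2. Fewer hearts enter these fits. Voom on recovered reads called 2197 genes higher and 2331 lower, and the same 14 members. The hearts share only replicate numbers, and with a replicate block 10 members were higher and 2 lower, Timm17a (adjusted p = 0.0522) and Timm8b (0.0936) being lost. Without a filter Timm8b, Timm9, Timm13 and Timm17a were lost (adjusted p 0.0878, 0.0600, 0.0605 and 0.0536), and with the Myl7 covariate Timm8b, Timm13 and Tomm40 (0.0776, 0.0646 and 0.0528). Timm8b was also lost under median-of-ratios scaling (0.0633).

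Scaling without mtDNA-encoded genes moved the median of all genes from -0.02 to 0.05 and the higher share of all calls from 48.9% to 62.0%. Under it Timm8b was lost (0.0948), Tomm20 passed (adjusted p = 0.0320), the outer and inner membrane medians were both higher, at 0.22 and 0.19, and the matrix median turned to 0.0072. Members near 0 turned sign, and the cause was not tested: Tomm34 (0.0504) and Pmpcb (0.0723) under that scaling, Pmpcb (0.0124) under median-of-ratios, and with 1 heart left out Tomm34 (-0.102 to 0.0767), Pmpcb (-0.0783 to 0.0514), Timm44 (-0.0316 to 0.0858) and Tomm40l (-0.0122 to 0.0750).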
